A study of Mus musculus with 18 samples.

Results

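The type I interferon response genes were followed in 18 mouse melanoma allografts. They are a list of 44 genes that cover the interferon receptor, the transcription factors it works through, and the antiviral genes it switches on. The list was chosen with earlier results of these data known. Its genes, the members, were matched by name alone to probe sets (groups of array probes that each measure a transcript). Every probe set was used whose single gene symbol in the platform annotation was a listed gene or a current synonym. Of the 44 genes, 42 had such a probe set, 80 probe sets in all, out of 18193 genes and 45037 probe sets in the table. Isg15 and Ifi44 were not analysed here.

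The tumours grew from iNRAS-475, a single mouse melanoma cell line, placed intradermally in nude mice that drank water with 2 mg/ml doxycycline for about 6 weeks, until tumours measured 200 to 500 mm3. In the 6 tumours named -NRAS, doxycycline had been withdrawn for 4 days. In the 6 MEKi tumours, mice had received 100 mg/kg of AZD6244, an inhibitor of the kinase MEK, with the label giving 4 days. The 6 vehicle tumours came from mice given the carrier alone. Every tumour is a separate biological sample. Withdrawing doxycycline also removes the drug itself from the mouse, so the loss of NRAS and the loss of doxycycline cannot be told apart. Nude mice lack a normal thymus and so have few mature T cells, while their macrophages and natural killer (NK) cells remain. Strain, sex and age of the hosts are not given in the sources used here. Each array came from about 50 mg of tumour trimmed of skin, and array medians lay between 72.3 and 78.5 intensity units. The mouse Nras gene had 1853 to 2009 in -NRAS, 1858 to 2229 in MEKi and 2184 to 2524 in vehicle tumours; whether its probe set reads the inducible transgene is not given in the sources used here, so it does not check the withdrawal. Dusp6, a phosphatase gene switched on by MEK and ERK and chosen after its values were seen, had 786 to 1667 in -NRAS, 1941 to 2807 in MEKi and 7412 to 9135 in vehicle tumours.

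Type I interferons bind a receptor made of IFNAR1 and IFNAR2. The receptor's kinases, JAK1 and TYK2, then activate STAT2, and a complex of STAT2 with IRF9 binds the interferon-stimulated response element in the promoters of target genes. Many targets sense viral nucleic acid or block viral replication, and some, such as USP18, dampen the signal again. In tumours these genes can be switched on in the cancer cells, in blood vessels and stroma, and in immune cells.

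Some members carry that element close to their start, and 4 promoters are shown here because their genes stand at opposite ends of the response described below. Each runs from 250 bases before to 50 bases after the annotated start, in the direction of transcription, from RefSeq on the mouse build GRCm38.p6. Capitals mark every match to the core of the element, written GAAANNGAA, on either strand. Matches 6 bases apart overlap and appear as 1 longer run of capitals. Ifit3 is at chr19:34583279-34583578 on the plus strand, Ifit1 at chr19:34640639-34640938 on the plus strand, Bst2 at chr8:71537423-71537722 on the minus strand and Oas3 at chr5:120777610-120777909 on the minus strand.
Ifit3: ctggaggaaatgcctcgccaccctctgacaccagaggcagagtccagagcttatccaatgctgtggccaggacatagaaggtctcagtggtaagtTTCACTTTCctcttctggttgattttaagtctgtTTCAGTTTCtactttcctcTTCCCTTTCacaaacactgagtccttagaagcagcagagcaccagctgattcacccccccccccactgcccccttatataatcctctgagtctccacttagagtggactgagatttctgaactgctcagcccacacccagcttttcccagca
Ifit1: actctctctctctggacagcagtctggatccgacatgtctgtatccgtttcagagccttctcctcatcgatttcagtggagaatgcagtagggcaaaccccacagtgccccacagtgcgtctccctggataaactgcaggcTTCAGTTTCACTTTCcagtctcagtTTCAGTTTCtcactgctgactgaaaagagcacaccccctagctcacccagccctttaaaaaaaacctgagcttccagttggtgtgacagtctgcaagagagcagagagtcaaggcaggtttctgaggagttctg
Bst2: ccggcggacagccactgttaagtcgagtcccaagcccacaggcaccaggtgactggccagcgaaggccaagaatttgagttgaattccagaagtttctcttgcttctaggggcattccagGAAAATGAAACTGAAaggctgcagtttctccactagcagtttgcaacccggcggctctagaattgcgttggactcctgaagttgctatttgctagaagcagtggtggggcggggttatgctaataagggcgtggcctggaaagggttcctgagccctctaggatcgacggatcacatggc
Oas3: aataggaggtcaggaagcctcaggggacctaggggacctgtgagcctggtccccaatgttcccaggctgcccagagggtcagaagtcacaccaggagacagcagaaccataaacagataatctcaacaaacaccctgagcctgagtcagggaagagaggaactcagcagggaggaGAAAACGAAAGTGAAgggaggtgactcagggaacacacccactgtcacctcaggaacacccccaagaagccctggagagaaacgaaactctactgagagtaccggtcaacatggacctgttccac

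Ifit3 and Ifit1 held 3 matches each, while Bst2 and Oas3 held 2 each. The promoter table had entries for 34 members, and 15 of them (44.1%) held at least 1 match, against 9.76% of the 27025 genes in that table. A second element, the gamma-activated site TTCNNNGAA, was found in 10 of the 34 members (29.4%), against 9.55% of all genes. A match describes letters in this window and nothing more.

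After doxycycline withdrawal the interferon genes rose together. Of the 42 measured members, 37 were higher in -NRAS than in vehicle tumours and 0 were lower, where 31.8% of the 15005 genes tested were called higher and 27.5% lower (limma across all genes and all 18 arrays, Benjamini-Hochberg adjusted p under 0.05). The median member had a log2 change of 0.96, against 0.004 over all genes tested. Because the list was chosen with earlier results of these data known, the comparisons with all genes are descriptive and not an independent test. In 33 members every -NRAS tumour was above every vehicle tumour, as was the case for 20.8% of all genes. Under MEK inhibition 10 of the 42 were higher than in vehicle tumours, a share near the 24.3% of all genes called higher, while 4 were lower, where 20.9% of all genes were called lower, and 28 did not pass the test. The median member changed by 0.03, against 0.009 over all genes. In 8 members all MEKi tumours lay above all vehicle tumours (12.8% of all genes), and in 2 all lay below (12.7% of all genes). Set directly against each other, 36 members were higher in -NRAS than in MEKi tumours (24.3% of all genes) and 1 was lower (22.7% of all genes), with a median difference of 0.81, against -0.009 over all genes. In 31 members the tumours of these arms did not overlap, with -NRAS above (15.0% of all genes). All log2 changes are differences of log2(intensity + 16), which understates the change of dim genes, and all 42 genes passed the filter on low values.

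**Figure D1:**
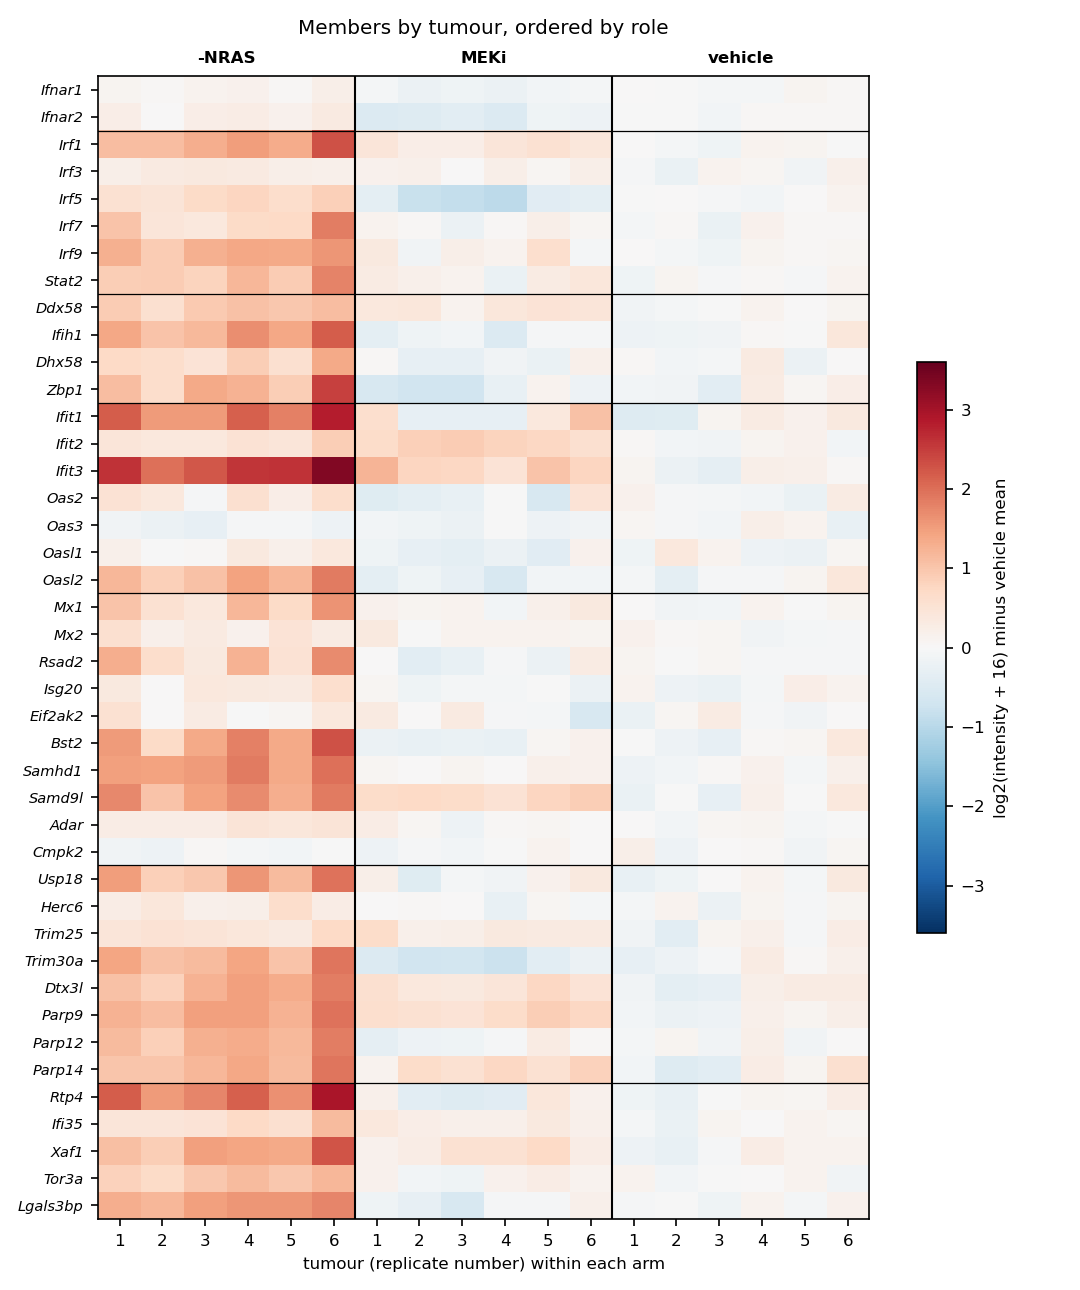
Each square is log2(intensity + 16) of 1 member (rows, grouped by role) in 1 tumour (columns) minus the vehicle mean of that member, with -NRAS tumours on the left, MEKi in the middle and vehicle on the right. Most rows are red across the -NRAS tumours, with replicate 6 the deepest, while the MEKi tumours hold both red rows (Ifit2, Ifit3, Parp9) and blue ones (Irf5, Trim30a).

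These are whole pieces of tumour, so more cells of a type and more RNA per cell cannot be told apart. Markers of other cells moved with the treatments. Over all genes tested, 31.8% were called higher and 27.5% lower in -NRAS than in vehicle tumours. In MEKi tumours these shares were 24.3% and 20.9%. Of 18 macrophage and monocyte markers tested, 16 were higher in -NRAS and 14 were lower in MEKi than in vehicle tumours, and their summed intensity ran from 72536 to 91773 in -NRAS, from 12769 to 30004 in MEKi and from 26984 to 44348 in vehicle tumours. All 7 dendritic cell markers tested were higher in -NRAS than in vehicle tumours, with Xcr1 below the filter, and sums ran from 1060 to 2176 in -NRAS, from 481 to 547 in MEKi and from 603 to 785 in vehicle tumours. All 11 endothelial markers were higher in -NRAS tumours too, with sums of 2639 to 3691 in -NRAS, 1287 to 1973 in MEKi and 1169 to 1995 in vehicle tumours. Fibroblast markers were higher for 10 of 12 and lower for 2 in -NRAS tumours, with sums of 191622 to 226582 in -NRAS, 127618 to 134987 in MEKi and 84915 to 104416 in vehicle tumours. All 12 skeletal muscle markers were higher in both treated arms, with sums of 37390 to 59817 in -NRAS, 22727 to 54729 in MEKi and 4076 to 20124 in vehicle tumours. Of the 8 melanocytic markers tested, 5 were higher and 1 lower in -NRAS tumours, with sums of 9942 to 13313 in -NRAS, 12584 to 17886 in MEKi and 9232 to 11329 in vehicle tumours. Tyr and Tyrp1, enzymes that define pigment cells, lay below the filter, while Pmel, a pigment cell protein, ranged from 284 to 1568 in -NRAS, from 167 to 331 in MEKi and from 101 to 138 in vehicle tumours. The part of these cells in the interferon gene changes was not tested.

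Tumours also differed within the -NRAS arm. Replicate 6 had the highest value of its arm for 35 of the 42 members, against 13.4% of all genes, and its median member stood 1.67 above the vehicle mean on the log2 scale, while the other 5 -NRAS tumours lay between 0.64 and 1.20. Replicate 2 was the lowest of the arm for 24 members, against 18.9% of all genes. The summed NK and lymphoid markers were 2326 in -NRAS replicate 6 and 558 to 1193 in the other -NRAS tumours, 544 to 677 in MEKi and 718 to 1511 in vehicle tumours, with Ncr1, Klra8 and Tbx21 below the filter. Of the 10 tested, 7 were higher and 2 lower in -NRAS than in vehicle tumours (31.8% and 27.5% of all genes). Gzmb, one of the 2, had 32.5 to 162 in -NRAS and 192 to 996 in vehicle tumours. Keratinocyte markers summed to 28413 in -NRAS replicate 2 and reached at most 854 in the other -NRAS tumours, and its neutrophil markers summed to 14385. Their part in the members' levels was not tested. Leaving out replicates 2 and 6 together, a setting added after seeing the data, left 36 members higher and 0 lower in -NRAS than in vehicle tumours, with a median of 0.96. Of all 15005 genes, 4541 were higher and 3876 lower in that setting. The median spread within an arm (SD of log2 values) was 0.28 for members in -NRAS tumours, 0.18 in MEKi and 0.16 in vehicle tumours, and the -NRAS value was 0.18 without replicate 6. Over all genes the medians were 0.12, 0.12 and 0.13 in the same order.

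**Figure D2:**
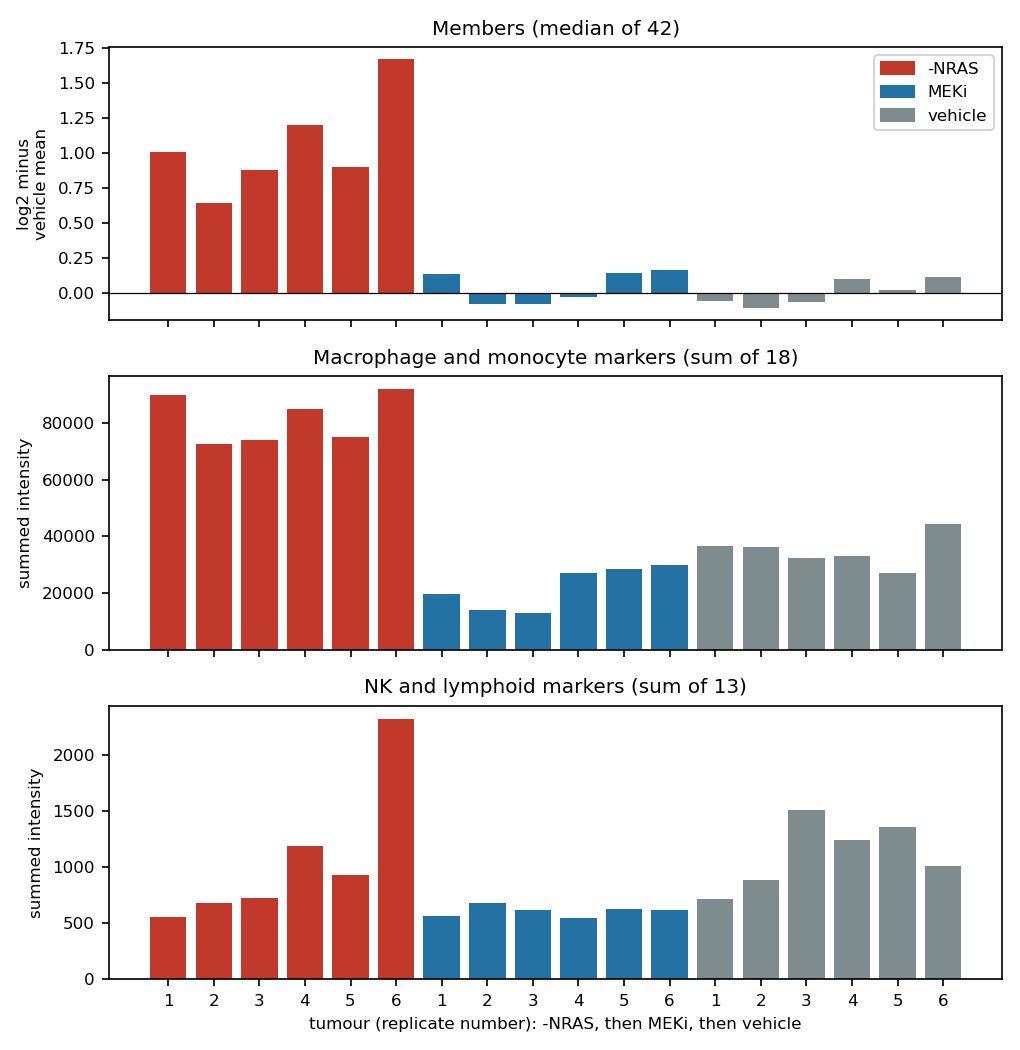
Bars give, for each tumour, the median over 42 members of log2(intensity + 16) minus the vehicle mean (top), the summed intensity of 18 macrophage and monocyte markers (middle) and of 13 NK and lymphoid markers (bottom), with -NRAS tumours first, then MEKi, then vehicle. The members' median lies between 0.64 and 1.67 in -NRAS tumours and between -0.11 and 0.16 in all others, and the NK and lymphoid sum of 2326 belongs to -NRAS replicate 6.

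Of the receptor genes, Ifnar2 rose in -NRAS tumours and both were called lower in MEKi tumours, with sizes that differed between probe sets. Ifnar2, the chain that binds interferon most tightly, had intensities of 1455, 1245, 1445, 1468, 1372 and 1542 in -NRAS tumours, 872, 886, 931, 869, 1089 and 1085 in MEKi tumours, and 1209, 1214, 1132, 1263, 1270 and 1255 in vehicle tumours. All MEKi tumours lay below all others, while -NRAS and vehicle tumours overlapped. The changes were 0.21 ± 0.07 in -NRAS (SE; limma adjusted p = 0.00994) and -0.36 ± 0.07 in MEKi tumours (limma adjusted p = 0.000209), both against vehicle. The fall in MEKi tumours rests on 1 probe set of 3. In -NRAS tumours the others rose by more, by 0.69 ± 0.08 (1440169_x_at) and by 0.58 ± 0.07 (1427691_a_at), and in MEKi tumours they changed by 0.20 ± 0.08 and 0.05 ± 0.07, neither called. Ifnar1, the partner chain, had 526 to 601 in -NRAS, 437 to 485 in MEKi and 483 to 552 in vehicle tumours. Its change was 0.11 ± 0.05 in -NRAS tumours, which did not pass (limma adjusted p = 0.051), and it fell by 0.15 ± 0.05 in MEKi tumours (limma adjusted p = 0.017), where its second probe set was not called.

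All 6 transcription factors rose in -NRAS tumours (31.8% of all genes). The largest change was in Irf1, an early target of both type I and type II interferon that acts on many antiviral promoters. Its intensities were 1405, 1418, 1601, 1835, 1653 and 3183 in -NRAS tumours, 871, 767, 755, 866, 952 and 856 in MEKi tumours, and 651, 611, 577, 699, 682 and 641 in vehicle tumours. The 3 arms did not overlap, and -NRAS replicate 6 stood far above its group. The change was 1.44 ± 0.14 in -NRAS tumours (limma adjusted p = 6.44e-08), and 1.27 ± 0.08 without replicate 6. In MEKi tumours it was 0.38 ± 0.14 (limma adjusted p = 0.0355), a call that was lost when MEKi replicate 1, 4, 5 or 6 or vehicle replicate 1, 2, 3 or 6 was left out, with log2 changes from 0.347 to 0.386 there.

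Irf9 and Stat2 encode a DNA-binding and an activating subunit of the complex that binds this element. Irf9 had 346 to 567 in -NRAS, 160 to 280 in MEKi and 157 to 191 in vehicle tumours, a change of 1.30 ± 0.11 in -NRAS tumours. Stat2 had 104 to 219 in -NRAS, 41.5 to 74.7 in MEKi and 45.9 to 58.4 in vehicle tumours, a change of 1.08 ± 0.14, and its second probe set rose by 0.23 ± 0.08. In MEKi tumours both changed by 0.18, with SE of 0.11 and 0.14, and neither passed the test. Irf7, the factor that amplifies interferon production, rose by 0.85 ± 0.18 in -NRAS tumours, and by 0.65 ± 0.10 without replicate 6, which had 349 against 117 to 191 in the other -NRAS tumours. Irf3, which starts interferon production and is present before infection, rose by 0.26 ± 0.06 in -NRAS tumours by its brightest probe set. Its other probe sets changed by 0.22 ± 0.07, 0.64 ± 0.09 and 0.07 ± 0.13 there, the last not called. In MEKi tumours the brightest was not called (0.14 ± 0.06), while 1435271_at rose by 0.42 ± 0.09 (limma adjusted p = 0.000785).

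Irf5, a factor active in macrophages and other immune cells, went opposite ways in the treatments. Its intensities were 268, 247, 292, 315, 284 and 332 in -NRAS tumours, 136, 93.5, 90.9, 83.4, 129 and 135 in MEKi tumours, and 174, 180, 171, 162, 178 and 195 in vehicle tumours. No arms overlapped. It rose by 0.66 ± 0.10 in -NRAS tumours (limma adjusted p = 1.84e-05) and fell by 0.62 ± 0.10 in MEKi tumours (limma adjusted p = 7.65e-05). The second Irf5 probe set, 1449678_at, disagreed: it had 85.1, 68.7, 87.9, 81, 83.1 and 83.9 in -NRAS tumours, 71, 112, 85.6, 111, 85.1 and 77.2 in MEKi tumours, and 86, 105, 118, 101, 88.3 and 117 in vehicle tumours. By that probe set Irf5 fell by 0.27 ± 0.10 in -NRAS tumours (limma adjusted p = 0.0206) and was not called in MEKi tumours, so the direction for Irf5 depends on the probe set.

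The sensors of nucleic acid all rose in -NRAS tumours (31.8% of all genes). Ifih1 encodes MDA5, a cytoplasmic sensor of long double-stranded RNA. Its intensities were 491, 381, 414, 598, 494 and 857 in -NRAS tumours, 134, 157, 166, 122, 170 and 170 in MEKi tumours, and 153, 159, 162, 184, 177 and 239 in vehicle tumours. Every -NRAS tumour lay above all others, a change of 1.47 ± 0.15 (limma adjusted p = 1.15e-07), while MEKi and vehicle tumours overlapped (-0.20 ± 0.15). Zbp1, a sensor of Z-form nucleic acid that can start necroptosis, rose by 1.28 ± 0.23, with 448 in -NRAS replicate 6 and 117 to 202 in the other -NRAS tumours. In MEKi tumours its change of -0.38 ± 0.23 did not pass. Dhx58, which encodes the regulator LGP2, rose by 0.78 ± 0.13. Ddx58, which encodes RIG-I, the sensor of RNA with a 5′ triphosphate, was the sensor that rose in both: by 0.93 ± 0.08 in -NRAS and by 0.38 ± 0.08 in MEKi tumours (limma adjusted p = 0.00067).

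**Figure D3:**
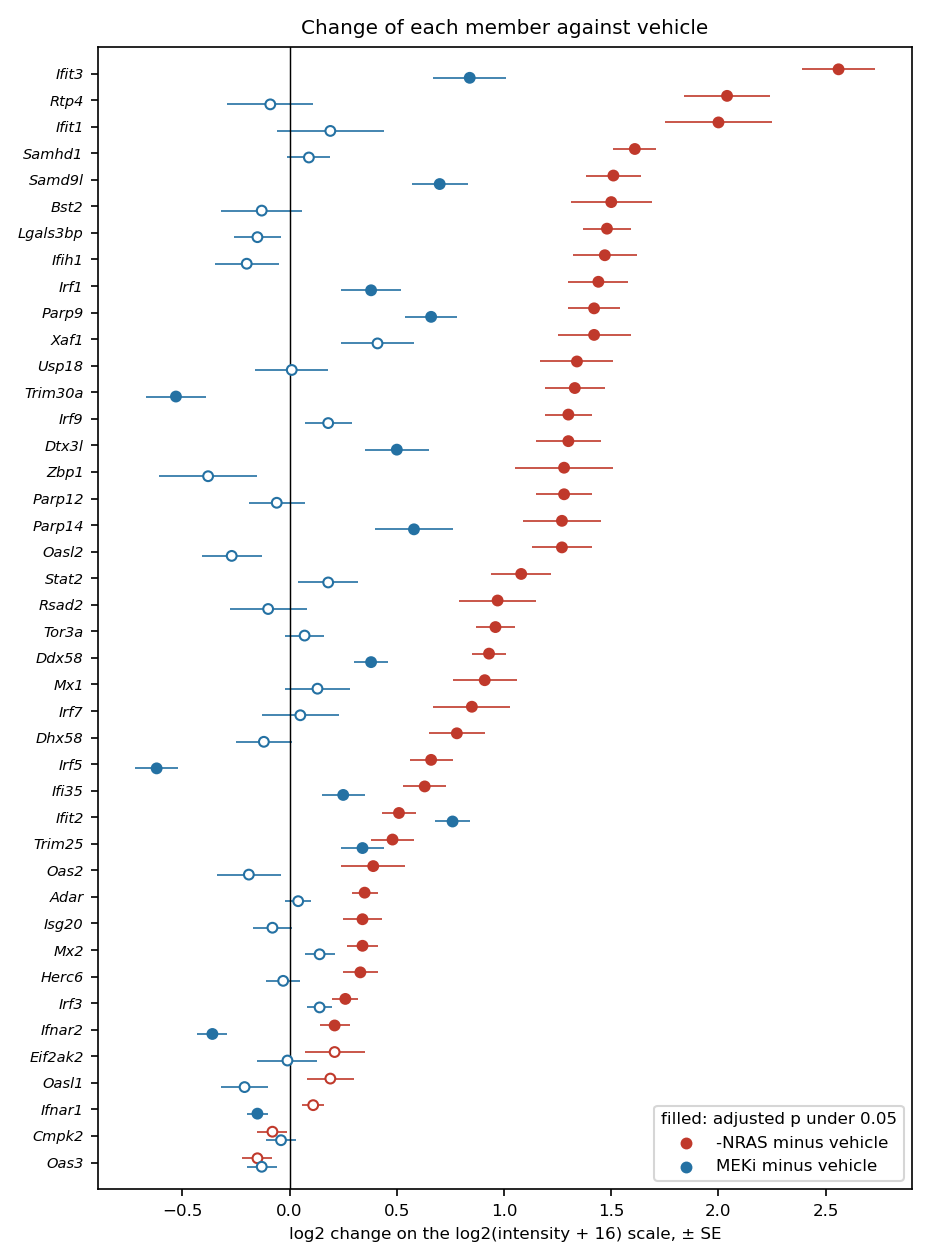
Points give the log2 change of each of the 42 members against vehicle tumours in -NRAS (red) and MEKi tumours (blue), with SE bars from the fit, filled where the adjusted p was under 0.05, ordered by the -NRAS change. The red points run from -0.15 (Oas3) to 2.56 (Ifit3), and the blue ones from -0.62 (Irf5) to 0.84 (Ifit3).

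The IFIT family, proteins that hold viral RNA back from translation, showed the largest change of all members and also the single member that was lower in -NRAS than in MEKi tumours. Ifit3 had 833, 538, 646, 825, 837 and 1399 in -NRAS tumours, 311, 224, 219, 181, 270 and 224 in MEKi tumours, and 135, 105, 95.4, 145, 143 and 129 in vehicle tumours. The arms stood in 3 separate steps. It rose by 2.56 ± 0.17 in -NRAS tumours (limma adjusted p = 3.85e-10) and by 0.84 ± 0.17 in MEKi tumours (limma adjusted p = 0.000557), and the arms differed from each other by 1.72 ± 0.17.

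Ifit2, the next gene along chromosome 19 with no protein-coding gene between, did not follow that order. It had 918, 887, 881, 968, 909 and 1265 in -NRAS tumours, 1079, 1234, 1274, 1184, 1132 and 1022 in MEKi tumours, and 698, 625, 617, 723, 756 and 634 in vehicle tumours. Both treated arms lay wholly above vehicle, and 5 of the 6 -NRAS tumours lay below all MEKi tumours. It rose by 0.51 ± 0.08 in -NRAS and by 0.76 ± 0.08 in MEKi tumours, and the -NRAS minus MEKi difference was -0.25 ± 0.08 (limma adjusted p = 0.0178), or -0.33 ± 0.07 without -NRAS replicate 6. Its 2 promoters in the table held no core match.

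Ifit1, which binds RNA with an unmethylated cap, lies farther along the same chromosome. It had 316, 197, 195, 312, 243 and 503 in -NRAS tumours, 94.7, 44.3, 43.9, 43.9, 78.7 and 136 in MEKi tumours, and 37.2, 38.2, 62.8, 74.7, 65.5 and 77.5 in vehicle tumours. MEKi tumours were spread widely and overlapped vehicle. The change was 2.00 ± 0.25 in -NRAS tumours (limma adjusted p = 1.46e-06) and 0.19 ± 0.25 in MEKi tumours, which did not pass.

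The OAS family makes or resembles the enzymes that produce 2′-5′ oligoadenylate, the activator of RNase L. Its members differed. Oasl2 rose by 1.27 ± 0.14 in -NRAS tumours, with 222 to 463 in -NRAS, 71.5 to 107 in MEKi and 87.4 to 160 in vehicle tumours. Its neighbour Oasl1 had 78.3 to 107 in -NRAS, 55.8 to 89.3 in MEKi and 64.8 to 106 in vehicle tumours, and its change of 0.19 ± 0.11 in -NRAS tumours did not pass. Oas2 had 83.5 to 143 in -NRAS, 52.4 to 129 in MEKi and 71.8 to 110 in vehicle tumours and rose by 0.39 ± 0.15 in -NRAS tumours (limma adjusted p = 0.0386), a call that was lost without -NRAS replicate 1, 2, 4 or 6 or vehicle replicate 2, 3, 4 or 5, with changes from 0.338 to 0.387 there. Oas3, next to Oas2 and with the paired core matches shown above, was dim throughout, with 22.2 to 30 in -NRAS, 24.9 to 30.7 in MEKi and 23.5 to 38.2 in vehicle tumours. Its changes of -0.15 ± 0.07 and -0.13 ± 0.07 did not pass.

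**Figure D4:**
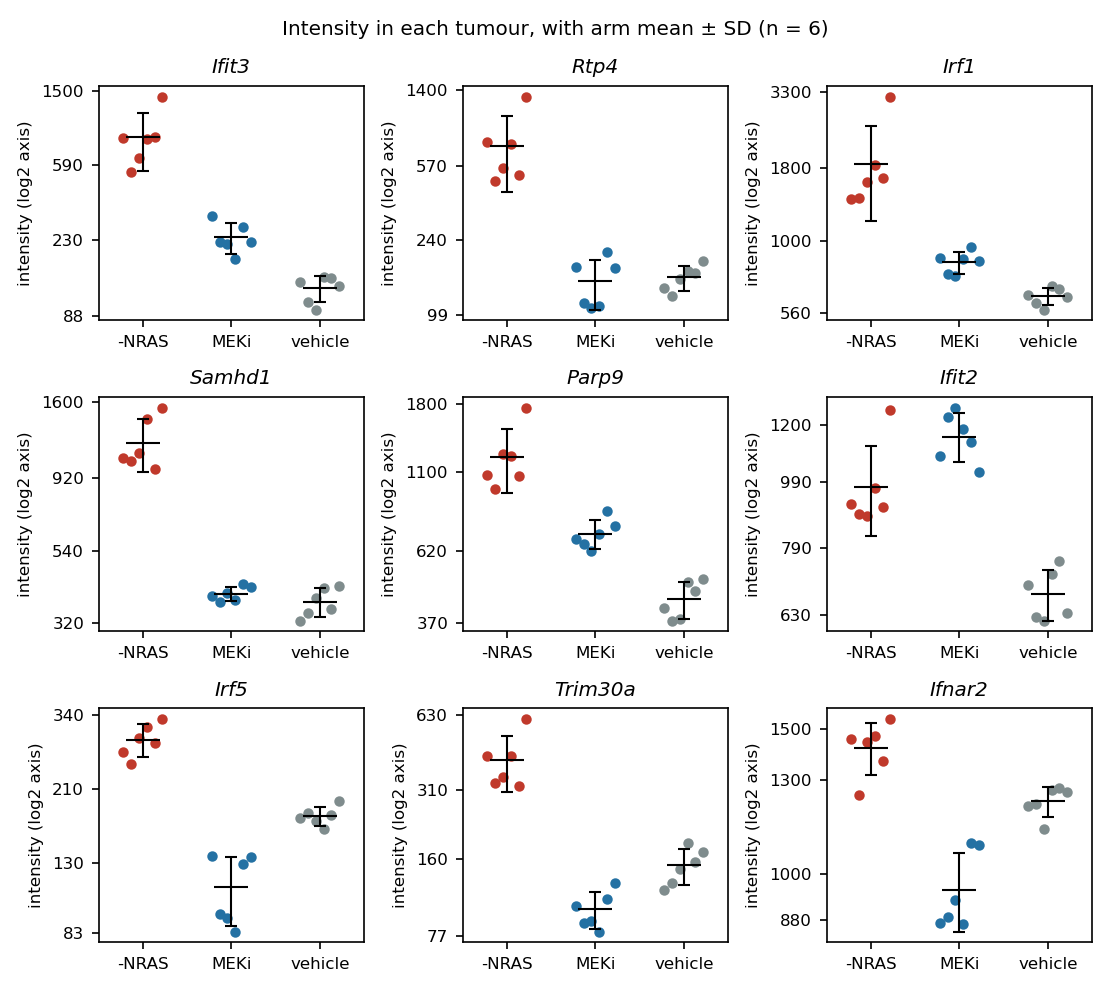
Points are single tumours, with bars for the arm mean ± SD (n = 6 tumours), for 9 members on log2 axes whose ranges differ between panels, with -NRAS on the left, then MEKi, then vehicle. Rtp4 and Samhd1 stand high in -NRAS tumours alone, Ifit3, Irf1 and Parp9 fall into 3 steps, Ifit2 is highest on average in MEKi tumours, and Irf5, Trim30a and Ifnar2 are lowest in MEKi tumours.

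Of the 10 antiviral effectors, 8 rose in -NRAS tumours (31.8% of all genes) and 1 in MEKi tumours (24.3% of all genes). Samhd1, an enzyme that depletes the nucleotides viruses copy their genomes from, had 1060, 1042, 1104, 1408, 979 and 1532 in -NRAS tumours, 390, 374, 398, 378, 426 and 417 in MEKi tumours, and 326, 344, 384, 413, 355 and 421 in vehicle tumours. All -NRAS tumours lay above all others (1.61 ± 0.10, limma adjusted p = 7.04e-11), and MEKi and vehicle tumours overlapped (0.09 ± 0.10). In MEKi tumours the Samhd1 probe sets differed: 2 of its 5, 1434438_at and 1444064_at, were called higher, by 0.34 ± 0.11 and 0.46 ± 0.09.

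Bst2, the tether that holds budding virus on the cell surface and also a marker of plasmacytoid dendritic cells, had 627, 339, 551, 759, 555 and 1065 in -NRAS tumours, 176, 170, 171, 168, 215 and 229 in MEKi tumours, and 205, 178, 165, 214, 215 and 275 in vehicle tumours. It rose by 1.50 ± 0.19 in -NRAS tumours and changed by -0.13 ± 0.19 in MEKi tumours. Of 7 markers of those dendritic cells tested, Bst2 among them, 5 were higher in -NRAS than in vehicle tumours (31.8% of all genes). In MEKi tumours 2 were higher, Tcf4 and Cox6a2, a share near the 24.3% of all genes. The summed intensity ran from 8309 to 9282 in -NRAS, from 7460 to 9113 in MEKi and from 4318 to 5476 in vehicle tumours. Tcf4, which is not particular to those cells, made up most of each sum, with 6860 to 7626 in -NRAS, 6681 to 8373 in MEKi and 3534 to 4819 in vehicle tumours. Siglech, one of the 2 not called in -NRAS tumours, had 60 to 105 in -NRAS, 44.8 to 83.8 in MEKi and 51.9 to 67.6 in vehicle tumours. The part of these cells in the Bst2 rise was not tested. Samd9l, a restrictor of poxviruses, was the effector that rose in both, by 1.51 ± 0.13 in -NRAS and by 0.70 ± 0.13 in MEKi tumours.

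Rsad2 encodes viperin, which makes a chain-terminating nucleotide, and Cmpk2 beside it supplies the substrate. Rsad2 had 112 to 313 in -NRAS, 61.2 to 107 in MEKi and 81 to 90.6 in vehicle tumours and rose by 0.97 ± 0.18 in -NRAS tumours. The brighter Cmpk2 probe set, 1422095_a_at, had 38.9 to 48.2 in -NRAS, 38.5 to 51.9 in MEKi and 38.8 to 55.6 in vehicle tumours, with no call. The other, 1450484_a_at, had 54.6, 32.6, 32.8, 52.2, 40.3 and 55.8 in -NRAS tumours, 21.2, 21.4, 23.5, 20.3, 22 and 22.1 in MEKi tumours, and 16.3, 22.5, 24.8, 21.5, 23.8 and 26 in vehicle tumours. By that probe set the -NRAS tumours stood apart and Cmpk2 rose by 0.64 ± 0.09 (limma adjusted p = 9.6e-06).

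The dynamin-like GTPases Mx1 and Mx2 rose by 0.91 ± 0.15 and 0.34 ± 0.07 in -NRAS tumours. Isg20, an exonuclease for single-stranded RNA, rose by 0.34 ± 0.09, and Adar, the editor of double-stranded RNA, by 0.35 ± 0.06. Eif2ak2, the kinase PKR that halts translation, changed by 0.21 ± 0.14 by its brightest probe set, which did not pass, while its other probe sets rose by 0.28 ± 0.08 and 0.38 ± 0.15 in -NRAS tumours.

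Of the ubiquitin and ISG15 enzymes and the PARPs, all 8 measured members rose in -NRAS tumours (31.8% of all genes). In MEKi tumours 4 of them also rose (24.3% of all genes). Parp9 and Dtx3l encode partners of one ubiquitin ligase and lie next to each other on chromosome 16, with Parp14, an ADP-ribosyltransferase, on the other side of Dtx3l. Parp9 had 1073, 969, 1248, 1234, 1068 and 1747 in -NRAS tumours, 676, 652, 622, 702, 829 and 743 in MEKi tumours, and 411, 376, 382, 498, 466 and 509 in vehicle tumours. Its arms fell into 3 steps, with changes of 1.42 ± 0.12 in -NRAS (limma adjusted p = 5.87e-09) and 0.66 ± 0.12 in MEKi tumours (limma adjusted p = 0.000143). The corresponding changes were 1.30 ± 0.15 and 0.50 ± 0.15 for Dtx3l, and 1.27 ± 0.18 and 0.58 ± 0.18 for Parp14. Parp12, which is not part of that cluster, rose by 1.28 ± 0.13 in -NRAS tumours and changed by -0.06 ± 0.13 in MEKi tumours.

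Trim30a, a ubiquitin ligase that restrains innate signalling in mouse macrophages, went opposite ways. It had 425, 329, 348, 427, 320 and 608 in -NRAS tumours, 102, 87.3, 89.2, 80.2, 110 and 127 in MEKi tumours, and 119, 128, 145, 186, 155 and 171 in vehicle tumours. The -NRAS tumours stood far above, and 1 MEKi tumour, at 127, reached into the vehicle range while the other 5 lay below it. It rose by 1.33 ± 0.14 in -NRAS tumours (limma adjusted p = 1.33e-07) and fell by 0.53 ± 0.14 in MEKi tumours (limma adjusted p = 0.00409), while its second probe set was not called in MEKi tumours.

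Trim25, the ligase that helps activate RIG-I, had 1339, 1423, 1367, 1327, 1235 and 1626 in -NRAS tumours, 1568, 1129, 1148, 1256, 1230 and 1252 in MEKi tumours, and 899, 751, 1066, 1122, 957 and 1204 in vehicle tumours. By this probe set Trim25 rose by 0.48 ± 0.10 in -NRAS and by 0.34 ± 0.10 in MEKi tumours. By 1425974_a_at it rose by 0.52 ± 0.10 in -NRAS tumours and was not called in MEKi tumours (0.22 ± 0.10). A dimmer probe set, 1426415_a_at, gave the opposite direction in MEKi tumours, with 31.3, 37.2, 34, 37, 40.6 and 43.8 in MEKi tumours and 46.8, 45.6, 47.9, 44.6, 44.9 and 49.1 in vehicle tumours (-0.23 ± 0.08, limma adjusted p = 0.0223). Usp18, which removes ISG15 from proteins and blocks the receptor, rose by 1.34 ± 0.17 in -NRAS tumours and changed by 0.01 ± 0.17 in MEKi tumours. Herc6, the mouse ligase for ISG15, rose by 0.33 ± 0.08 in -NRAS tumours by its brightest probe set, and by 1.00 ± 0.18 and 0.46 ± 0.10 by its other tested ones.

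The remaining 5 measured members all rose in -NRAS tumours (31.8% of all genes). Rtp4, a chaperone of G protein-coupled receptors that also restrains interferon responses, had 754, 477, 557, 741, 516 and 1288 in -NRAS tumours, 175, 115, 108, 111, 208 and 173 in MEKi tumours, and 137, 125, 151, 167, 162 and 188 in vehicle tumours. The -NRAS tumours stood clear of the rest (2.04 ± 0.20, limma adjusted p = 6.61e-08), and MEKi and vehicle tumours overlapped (-0.09 ± 0.20). Lgals3bp, a secreted glycoprotein that binds galectins, rose by 1.48 ± 0.11, and Tor3a, an endoplasmic reticulum ATPase, by 0.96 ± 0.09. In MEKi tumours Tor3a was not called by that probe set (0.07 ± 0.09) but fell by 0.30 ± 0.10 by another, 1428660_s_at (limma adjusted p = 0.0236). Ifi35, a partner of Nmi, rose by 0.63 ± 0.10 in -NRAS and by 0.25 ± 0.10 in MEKi tumours (limma adjusted p = 0.0452). The second call was lost without -NRAS replicate 4 or 5, MEKi replicate 1, 2, 3 or 5, or vehicle replicate 1, 2 or 4, with changes from 0.207 to 0.267 there. Of its other probe sets, 1459151_x_at rose by 0.21 ± 0.08 in MEKi tumours, while 1424617_at was not called (-0.05 ± 0.08). Xaf1, an antagonist of the caspase inhibitor XIAP, rose by 1.42 ± 0.17 in -NRAS tumours. Its change of 0.41 ± 0.17 in MEKi tumours did not pass (limma adjusted p = 0.0565) but did without -NRAS replicate 6, which lies outside this comparison and enters the spread shared by the 3 arms (limma adjusted p = 0.00874). It also passed without -NRAS replicate 2, MEKi replicate 1 or vehicle replicate 4 (0.414, 0.465 and 0.469), with the replicate block, with only these arms fitted and with the stricter filter. The second Xaf1 probe set, 1443621_at, had 845 and 578 in -NRAS replicates 1 and 2 and 36 to 86 in the other -NRAS tumours. It rose by 2.01 ± 0.64 in -NRAS tumours but was not called between -NRAS and MEKi tumours (1.14 ± 0.64).

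Across all calls by the probe set used for each gene, the members fell into a few patterns. Beside the 3 that rose in -NRAS and fell in MEKi tumours (Ifnar2, Irf5 and Trim30a), 10 rose in both. No other probe set of Ifnar2, Irf5 or Trim30a was called in MEKi tumours, and 1449678_at of Irf5 was lower in -NRAS tumours, as given above. Of those 10, 8 were higher in -NRAS than in MEKi tumours, Ifit2 was lower, and Trim25 did not differ beyond the threshold (0.14 ± 0.10). A further 24 rose in -NRAS tumours and were not called in MEKi tumours, and 23 of those also differed directly between -NRAS and MEKi tumours, the exception being Irf3 (0.12 ± 0.06). By the probe set used for the gene, Oas3, Eif2ak2 and Cmpk2 had no call in any comparison, though dimmer probe sets of Eif2ak2 and Cmpk2 did, as given above, and Oasl1 differed only between -NRAS and MEKi tumours (0.40 ± 0.11). The comparisons with vehicle share the same 6 vehicle tumours. Among members with a promoter entry and a test, the 13 with a core match had a median change of 1.08 in -NRAS tumours (-0.15 to 2.56), with 11 higher. The 19 without one had a median of 0.66 (-0.08 to 1.61), with 16 higher, where 31.8% of all genes were called higher. The ranges overlapped, and the difference was not tested. In MEKi tumours the medians were 0.04 and -0.03.

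Counted by probe set, 67 of the 76 that passed the filter were higher in -NRAS than in vehicle tumours, where 28.0% of the 33777 probe sets tested were. In MEKi tumours 17 were higher (20.6% of all probe sets) and 6 lower (20.1%). Between -NRAS and MEKi tumours 63 were higher (20.6%). Of the 20 members with several probe sets tested, 15 had the same call from all of them in -NRAS tumours and 10 in MEKi tumours. Opposite calls occurred in Irf5 for -NRAS tumours and in Trim25 for MEKi tumours.

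**Figure D5:**
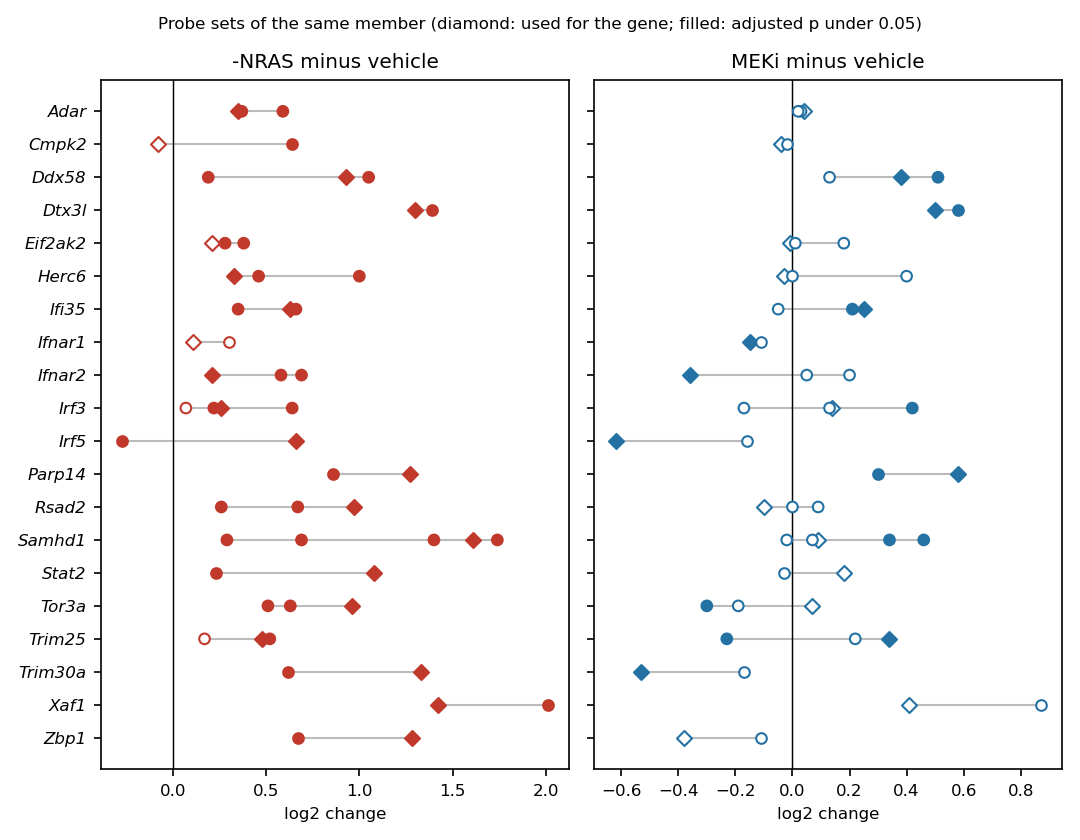
Points are the log2 changes given by the separate probe sets of the 20 members with several tested, in -NRAS (left) and MEKi tumours (right) against vehicle, with diamonds for the probe set used for the gene and filled symbols for an adjusted p under 0.05. Nearly all points on the left lie above 0, with 1449678_at of Irf5 at -0.27, while on the right probe sets of the same gene often fall on both sides of 0.

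The interferon genes themselves were dim. Ifnb1, the first type I interferon made by most cells, lay below the filter, with 17 to 25.2 in -NRAS, 16.1 to 26.9 in MEKi and 17.3 to 26.6 in vehicle tumours. Of 14 ligand genes listed, 5 were tested, of which Ifna2 rose by 0.15 ± 0.05 and Ifna1 fell by 0.24 ± 0.09 in -NRAS tumours, and 0 were called in MEKi tumours. Of the 14 receptor and JAK-STAT genes tested, 8 were higher and 2 lower in -NRAS tumours (31.8% and 27.5% of all genes). In MEKi tumours 4 were higher, near the 24.3% of all genes, and 2 lower, where 20.9% of all genes were. The receptor kinases Jak1 and Tyk2 rose by 0.24 ± 0.05 and 0.19 ± 0.06 in -NRAS tumours, and Tyk2 rose by 0.21 ± 0.06 in MEKi tumours. Ifngr1, a chain of the interferon gamma receptor, rose by 0.55 ± 0.07 in -NRAS tumours and changed by -0.02 ± 0.07 in MEKi tumours. Socs1, the feedback inhibitor of JAK kinases, had 50.7, 65.9, 54.4, 62.4, 60.5 and 73.9 in -NRAS tumours, 53.6, 61.1, 54.3, 46.3, 54.3 and 52.5 in MEKi tumours, and 168, 167, 98.2, 107, 110 and 104 in vehicle tumours. Both treated arms lay wholly below vehicle, by 0.85 ± 0.11 and 1.00 ± 0.11 on the log2 scale.

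Among 21 genes of nucleic acid and Toll-like receptor sensing, 12 were higher and 2 lower in -NRAS tumours (31.8% and 27.5% of all genes). In MEKi tumours 3 were higher and 1 lower (24.3% and 20.9% of all genes), neither above its share. Sting1, the adaptor that relays cytoplasmic DNA, had 296 to 393 in -NRAS, 142 to 181 in MEKi and 205 to 342 in vehicle tumours. It rose by 0.46 ± 0.10 in -NRAS and fell by 0.51 ± 0.10 in MEKi tumours. Cgas, the DNA sensor above it, changed by -0.11 ± 0.08 and -0.12 ± 0.08, neither called. The largest rises in -NRAS tumours were in Irf8, a factor of macrophage and dendritic cell development (1.49 ± 0.15), and Tlr7, an endosomal RNA sensor (1.26 ± 0.19).

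In a wider list of other interferon-induced genes, 43 were tested. Of these, 34 were higher and 4 lower in -NRAS tumours (31.8% and 27.5% of all genes). In MEKi tumours 6 were higher and 9 lower (24.3% and 20.9% of all genes), neither above its share. Between -NRAS and MEKi tumours 34 were higher and 1 lower (24.3% and 22.7% of all genes). The largest rises in -NRAS tumours were in GTPases of the IRG and GBP families, which attack the vacuoles of intracellular parasites and respond strongly to interferon gamma. Igtp had 1273, 1003, 2405, 2679, 2618 and 7395 in -NRAS tumours, 894, 206, 205, 127, 1620 and 354 in MEKi tumours, and 136, 117, 167, 381, 396 and 209 in vehicle tumours, a change of 3.37 ± 0.55 in -NRAS tumours (limma adjusted p = 2.97e-05). MEKi replicates 1 and 5 stood high in their arm, and Gbp2 had the same pair on top, with 2306 and 5040 against 805 to 1055 in the other MEKi tumours. Ifi47, Irgm1 and Gbp2 rose by 2.44 ± 0.33, 2.38 ± 0.37 and 2.37 ± 0.48 in -NRAS tumours. In MEKi tumours the largest called changes were falls of 1.37 ± 0.28 in Ifitm1, a membrane protein that blocks viral entry, and of 0.65 ± 0.15 in Epsti1.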

How the data were processed

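Per the submitters' processing notes, the deposited table was made with MAS5 and RMA, 2 ways of summarising Affymetrix arrays, with no version and no word on which made it. The deposited probe set intensity values were read as linear, since they ran from 7.37 to 44480, beyond what log2 intensities reach. Had they been transformed otherwise, the folds would differ in size. The number of arrays limits the precision. Of 45037 probe sets, 34945 had 1 gene symbol in the platform annotation, 932 had several and 9160 had no entry. A gene was represented by the probe set with the highest mean, its intensity taken as log2(intensity + 16), and kept if its mean lay above the 25th percentile of all probe set means (intensity 23.5), which left 15005 genes. limma 3.58.1 in R 4.3.3 (lmFit, eBayes) was fitted to all 18 tumours with 1 mean per arm, and p-values were adjusted by Benjamini-Hochberg over all genes. The same fit was run over 33777 probe sets. The fit was tested on simulated data. Correlations of same-numbered tumours' deviations were mixed (-0.136 to 0.273) and not all over 0.1 in any comparison, so no pairing was used. No batch is given in the sources used here. Every member is given with its change, with values per tumour for the largest change of each role and for members whose calls go opposite ways. From the pathway lists, the largest called changes and Ifnb1, Ifngr1, Jak1, Tyk2, Socs1, Cgas and Sting1 are named (1 further gene of that list is not reported here), while other genes were chosen after their values were seen. The members and all lists were chosen with earlier results of these data known. Alternatives covered the filter, probe set choice, scaling, pseudocount, variance model, a replicate block, the threshold and leaving out tumours.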

Additional observations from a re-analysis of the deposited data

Results flagged for a closer look

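In each arm of 6 tumours, the highest or lowest tumour of every member was compared with its nearest neighbour, as a share of the arm's range (Dixon's test). Of 126 arms and members looked at, 5 stood out, and chance alone marks about 1 in 20. In -NRAS tumours, replicate 6 was far above its arm for Irf1, with an intensity of 3183 against 1405 to 1835 in the others, and for Ifit2, with 1265 against 881 to 968. In the same arm replicate 2 was far below for Ddx58, with 367 against 468 to 541. In MEKi tumours, replicate 3 was low for Ddx58, with 266 against 320 to 345, and replicate 1 was high for Trim25, with 1568 against 1129 to 1256.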

How the results depend on the processing

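The count of members higher in -NRAS than in vehicle tumours lay between 34 and 40 under the alternatives, that for MEKi against vehicle between 6 and 11, and that for -NRAS against MEKi between 32 and 40. Over all genes, 3975 to 4855, 2737 to 3763 and 2882 to 3889 were higher in the same order. The settings tested 11308 to 18193 genes. The median change of members lay between 0.778 and 1.137, -0.002 and 0.081, and 0.688 and 0.904 in the same order. With median centring, and with the replicate number as a replicate block, 1 member (Oas3) was lower in -NRAS than in vehicle tumours, as it was without vehicle replicate 6; leaving out single tumours gave 0 to 1. The replicate block left 37 members higher there, where 4701 of all 15005 genes were higher. The members lower in MEKi tumours numbered 2 with the mean of all probe sets and with the most variable probe set. There 3364 of 14633 and 3535 of 14842 genes were lower. The members numbered 4 to 6 when single tumours were left out. At an adjusted p under 0.01, 6 members were higher in MEKi tumours, where 2737 of all 15005 genes were. At that threshold 0 members were lower in -NRAS than in MEKi tumours, since Ifit2 missed it, where 2576 of all genes were. Cmpk2 changed by 0.283 with the mean of its probe sets and by 0.643 with the most variable one in -NRAS against vehicle tumours, and by 0.314 and 0.666 against MEKi tumours, where its brightest probe set had not risen. Ifnar2 in MEKi tumours changed by 0.203 with the most variable probe set and by -0.034 with the mean. Trim25 changed there by 0.224 with the most variable probe set and by 0.111 with the mean, neither called. With the mean, Ifi35 was not called in MEKi tumours either (0.137). With the most variable probe set, Xaf1 was not called between -NRAS and MEKi tumours (1.136). Without single tumours, calls were lost for Oas2 in -NRAS tumours, for Irf1 and Ifi35 in MEKi tumours, and for Mx2 between -NRAS and MEKi tumours (0.154 to 0.2 without -NRAS replicate 1 or 5 or MEKi replicate 2, 3, 5 or 6). The replicate block, only the 2 groups compared the filter at the 50th percentile and leaving out -NRAS replicates 2 and 6 together each brought the Xaf1 change of 0.414 in MEKi tumours past the threshold. The number of tumours whose closest match bore the same number was 1 of 6 for -NRAS and vehicle, 4 of 6 for MEKi and vehicle, and 2 of 6 for -NRAS and MEKi, a hint from the data and not the design.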

Other observations

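Genes of lymphocytes and of interferon gamma differed between tumours and are given here as values, chosen after they were seen. Ifng, interferon gamma itself, lay below the filter, with 40.5 in -NRAS replicate 6 and 13.2 to 16.4 in the other -NRAS tumours, 11.5 to 15.1 in MEKi and 10.8 to 17.1 in vehicle tumours. Cd3g, a chain of the T cell receptor complex, had 759 in -NRAS replicate 6 and 49.5 to 327 in the other -NRAS tumours, 26.4 to 58.5 in MEKi and 22.6 to 57.7 in vehicle tumours, and it rose in -NRAS tumours by 1.92 ± 0.41 (limma adjusted p = 0.00052). Klrd1, an NK cell receptor chain, had 386 in -NRAS replicate 6 and 71.7 to 145 in the other -NRAS tumours, 20.9 to 40.8 in MEKi and 25.8 to 46.2 in vehicle tumours. Gzmb, a protease of killer cells, went the other way, with 32.5 to 162 in -NRAS, 86.3 to 249 in MEKi and 192 to 996 in vehicle tumours, and fell by 2.84 ± 0.36 in -NRAS tumours, and it fell by 1.68 ± 0.36 in MEKi tumours. Cd274, the checkpoint ligand PD-L1, rose by 1.31 in -NRAS tumours, with 476 in replicate 6 and 100 to 262 in the others of its arm, 43.7 to 157 in MEKi and 60.3 to 96.5 in vehicle tumours. The MEKi replicates with the highest Cd274 were 1 and 5, with 121 and 157, and they were also the highest of their arm for Igtp, Gbp2, Ifi47 and Irgm1.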
